A study of Homo sapiens with 1 sample.

Results

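The miR-23a/27a/24-2 and miR-23b/27b/24-1 clusters were examined on 1 miRNA microarray. It held RNA of DLD-1, an established line of human colorectal carcinoma cells, transfected with the negative control plasmid pLVX-NC. Their 10 mature miRNAs (hsa-miR-23a-3p, hsa-miR-23a-5p, hsa-miR-23b-3p, hsa-miR-27a-3p, hsa-miR-27a-5p, hsa-miR-27b-3p, hsa-miR-27b-5p, hsa-miR-24-3p, hsa-miR-24-1-5p and hsa-miR-24-2-5p) were taken by name from the human miRNA spots of the scanner output, out of 2549 human miRNAs on the array, and they account for 200 of the 50980 human miRNA spots. The choice used names only and no measured value, but it was made with earlier results of these data known. The series was made to compare these control cells with cells overexpressing the circular RNA circLONP2, whose array was not analysed here, so the values describe 1 culture of 1 cell line in 1 condition and no test between conditions was possible. The array has 1 colour, with Cy3 as its dye, and every miRNA had 20 spots divided over 2 or 4 different probes among the members. Spots of a probe are technical repeats, and the SD given beside a value is the spread between spots, not between cultures.

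A miRNA hairpin is cut from a longer primary transcript by Drosha and then by Dicer, and the resulting duplex holds a 5p and a 3p arm. The arm that is loaded into Argonaute and represses target mRNAs is called the guide, and its partner, which is usually degraded, is the passenger. In the miR-23, miR-27 and miR-24 hairpins the 3p arm is the one known as the guide. miR-23a and miR-23b are known to repress glutaminase and are themselves repressed by MYC. miR-27 is known for restraining adipogenesis and targets FOXO1 and PPARG, and miR-24 acts on cell cycle genes such as E2F2 and MYC.

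The clusters are paralogous. In the GRCh38.p14 annotation, MIR23A, MIR27A and MIR24-2 lie within 373 bases on the minus strand of chromosome 19 (chr19:13836287-13836659), inside the limits of the long non-coding RNA gene MIR23AHG (chr19:13834516-13842918). MIR23B, MIR27B and MIR24-1 lie within 881 bases on the plus strand of chromosome 9 (chr9:95085208-95086088), inside the limits of the protein-coding gene AOPEP (chr9:94726699-95150224). Whether these positions are exonic or intronic was not examined. Both miR-24 hairpins give the same mature miR-24-3p, so its signal cannot be divided between the clusters.

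The mature guide sequences are shown because the paralogues that the results compare differ by a single base. They are RefSeq sequences of GRCh38.p14, 5′ to 3′, with the seed, bases 2 to 8, in capitals. miR-23c, encoded on chromosome X and not a member of either cluster, was the only other miRNA on the array with a seed of these guides.
miR-23a-3p: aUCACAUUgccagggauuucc
miR-23b-3p: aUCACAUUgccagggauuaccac
miR-23c: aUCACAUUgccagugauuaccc
miR-27a-3p: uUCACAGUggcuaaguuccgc
miR-27b-3p: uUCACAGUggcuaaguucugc
miR-24-3p: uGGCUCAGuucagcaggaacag

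Counted from the 5′ end, miR-23a-3p and miR-23b-3p differed by the single substitution U19A over the 21 bases that could be compared, and miR-23b-3p is 2 bases longer, with 23 bases. miR-27a-3p and miR-27b-3p also differed by a single substitution at the same position, C19U. miR-23c differed from miR-23b-3p by G14U and A22C. The seeds of the paralogous guides were identical, so the a and b members of each pair carry the same stretch for pairing with target mRNAs.

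The passenger sequences are shown because the results differ most among these arms. miR-23b-5p is not among the 10 members and is given for completeness of the hairpin.
miR-23a-5p: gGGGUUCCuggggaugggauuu
miR-23b-5p: uGGGUUCCuggcaugcugauuu
miR-27a-5p: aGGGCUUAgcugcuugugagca
miR-27b-5p: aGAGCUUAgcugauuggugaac
miR-24-2-5p: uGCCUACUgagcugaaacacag
miR-24-1-5p: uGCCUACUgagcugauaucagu

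The passengers had diverged further than the guides. miR-27a-5p and miR-27b-5p differed at 8 of 22 bases, including G3A inside the seed, so they carry different seeds. miR-24-2-5p and miR-24-1-5p shared their first 15 bases and differed at 6 bases towards the 3′ end, from A16U onwards. miR-23a-5p and miR-23b-5p differed at 7 bases and kept the same seed.

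Of the 10 members, 9 carried the scanner software's Detected flag, against 56.8% of all human miRNAs on the array. The exception was miR-24-1-5p. When at least 0.5 of the spots on 1 probe had to be well above background, 8 members passed against 49.9% of all miRNAs, and miR-27a-5p was lost too. When every spot of a probe had to be, 7 members passed against 45.8%, and miR-27b-3p was lost as well. With the positive and significant flag on 0.5 or more of the spots instead, 9 members passed against 68.9%. All 5 guide arms were detected, as were 4 of the 5 passenger arms among the members. Of 9 miRNAs listed for colorectal epithelium, 7 were detected. miR-141-3p was highest at a total signal of 1111.92, and the other detected ones ran from 4.86 to 29.9. miR-192-5p and miR-194-5p were not detected, so the epithelial label was met by some of its markers only. Of 5 blood miRNAs 3 were detected at total signals up to 6.07, of 3 muscle miRNAs 2 up to 9.81, and of 3 stromal or endothelial miRNAs 2 up to 21.6. The highest of these, miR-126-3p at 21.6, lay within the range of the epithelial miRNAs. With 56.8% of all human miRNAs detected, these counts separate the tissues little.

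Brightness is given in scanner units after subtraction of the local background. As a measure of background, 99% of 1000 negative control spots lay at or below 12.5, and this limit was 5.58 without 1 of their 7 probes that stood apart. A level relative to the array is the mean log2 brightness over the probes of a miRNA minus the 75th percentile of 2567 detected probes, which equals a brightness of 249. No human miRNA spot was saturated, and the 4.06% that the software had called outliers were not used. Different probes can bind with different strength, so a higher brightness of 1 miRNA over another describes the probes on this array and not the number of molecules.

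Among the guide arms, miR-23a-3p was the brightest. Its 20 spots ran from 138 to 201 with a median of 165, and their mean was 166 ± 21.1 (SD over 20 spots). All of them were well above background. Its level relative to the array was -0.59, and its total signal, the software's sum over the probes, was 61.2, which placed it at rank 416 of 1448 detected miRNAs.

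The paralogue miR-23b-3p was dimmer. Its spots ran from 49.98 to 73.3 with a median of 61.1, and their mean was 61.6 ± 5.72 (SD over 20 spots). No spot of miR-23b-3p reached the dimmest spot of miR-23a-3p. Its level relative to the array was -2.02, with a total signal of 22.6 and rank 730.

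The miR-27 guides lay lower, in the same order. The spots of miR-27a-3p ran from 27.1 to 57.7 with a median of 47.1, and their mean was 44.9 ± 8.96 (SD over 20 spots). The spots of miR-27b-3p ran from 17.0 to 25.7 with a median of 21.6, and their mean was 21.4 ± 2.53 (SD over 20 spots). Here too the spot ranges did not overlap. All spots of miR-27a-3p but 16 of the 20 spots of miR-27b-3p were well above background. Their total signals were 16.5 and 7.88, at ranks 842 and 1116, and their levels relative to the array were -2.50 and -3.55.

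By mean log2 brightness 7 of the detected members came in the order miR-23a-3p, miR-23a-5p, miR-23b-3p, miR-27a-3p, miR-24-3p, miR-27b-3p and miR-27b-5p. miR-27a-5p and miR-24-2-5p are not placed in this order, since their means over probes lay below the lowest probe well above background, and by total signal miR-24-2-5p lay between miR-23b-3p and miR-27a-3p. miR-24-3p, the guide made by both clusters, had spots from 35.5 to 47.3 with a median of 42.5, and a mean of 42.0 ± 3.196 (SD over 20 spots). All 20 spots were well above background. Its level relative to the array was -2.57 and its total signal was 15.5, at rank 865. It followed miR-27a-3p in the order, with a difference of 0.07 (standard error 0.04 from the spots). That difference was within 2 standard errors, so the order of these neighbours is not settled. The probes of miR-27a-3p, with means of 37.2 and 52.6, lay on either side of those of miR-24-3p, at 40.6 and 43.4. The other neighbours in the order of 7 differed by more than 2 standard errors, but these errors leave out differences between probes of the same miRNA. The dimmest probe of miR-23a-5p, with a mean of 55.0, lay below both probes of miR-23b-3p, at 59.4 and 63.7. With the brightest probe of each, miR-27b-3p minus miR-27b-5p was -0.11 on the log2 scale.

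**Figure D1:**
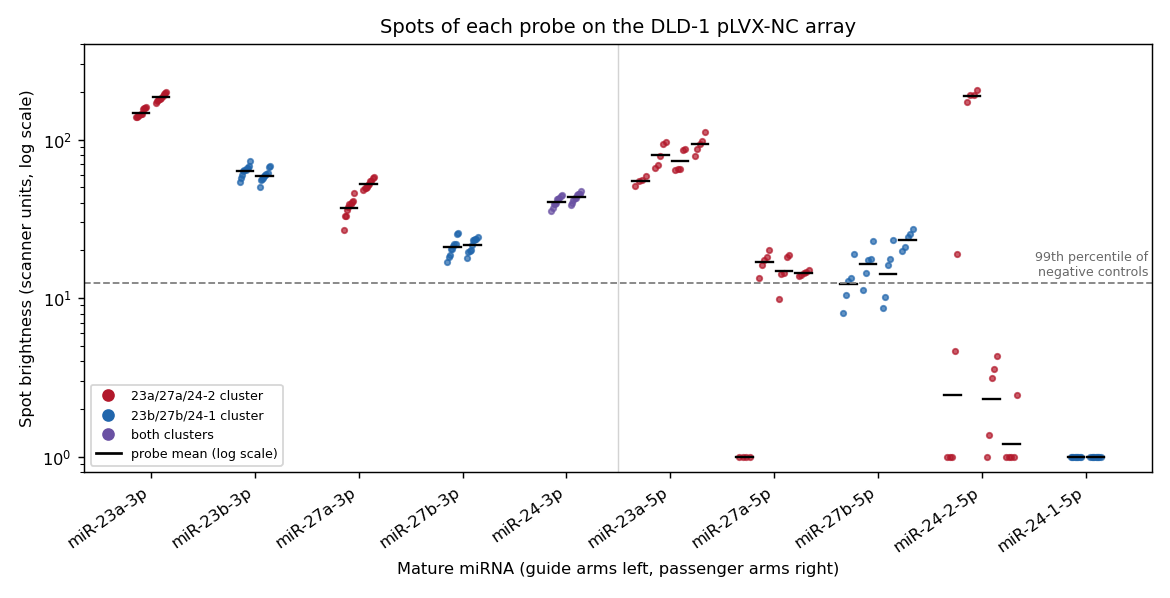
Brightness of every spot that was not marked as an outlier, on a log scale, for the 10 members on the DLD-1 pLVX-NC array; each column of points is 1 probe with its spots sorted by brightness, values below 1 are drawn at 1, black bars are the probe means on the log scale and the dashed line, at 12.5, bounds 99% of the negative control spots. The 2 probes of each guide differ by at most 0.51 on the log2 scale, whereas a single probe of miR-24-2-5p, near 189, stands far above the other 3.

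The passenger arms were less uniform. miR-23a-5p was brighter than any guide other than miR-23a-3p. Its spots ran from 50.8 to 112 with a median of 78.8, and their mean was 77.0 ± 17.5 (SD over 19 spots). All 19 spots were well above background, and all 4 of its probes were bright, with means from 55.0 to 94.0. Its total signal was 27.9, at rank 658. It exceeded the next member in the order, miR-23b-3p, by 0.27 on the log2 scale (standard error 0.05 from the spots). Their spot ranges overlapped, though, and the dimmest probe of miR-23a-5p lay below both probes of miR-23b-3p.

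miR-23b-5p, by contrast, was not detected. Its spots ran from -4.13 to 12.9, and 0 of 20 were well above background.

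miR-27a-5p and miR-27b-5p were near the background. miR-27a-5p had a mean of 12.1 ± 7.25 (SD over 19 spots) and a median of 14.4, with 1 spot well above background. Of its 4 probes, 3 had means from 14.4 to 17.0, and the fourth had a mean of -0.88 ± 1.24 (SD over 4 spots). miR-27b-5p had a mean of 17.1 ± 5.81 (SD over 20 spots) and a median of 17.5, with 8 spots well above background. Its probe means ran from 12.8 to 23.5, and every spot of the brightest probe was well above background. Their total signals of 4.28 and 6.27 placed them at ranks 1289 and 1197.

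The signal of miR-24-2-5p came from 1 probe. That probe had a mean of 189 ± 12.7 (SD over 4 spots), brighter than either probe of miR-23a-3p, the brighter of which had 185. The means of the other 3 probes were 3.66, 2.32 and -0.20, and only 1 of their 15 spots was well above background. The bright probe held 96.9% of the summed brightness, and on the log2 scale its brightest probe exceeded its dimmest by 7.30 (standard error 0.26). Because brightness below 1 was set to 1, this difference depends on that limit. Among 138 detected miRNAs with 4 probes, the median of this difference was 1.18, and 2 of the 138 (miR-24-2-5p included) reached that of miR-24-2-5p. Of the same 138 miRNAs, 19 (13.8%) had exactly 1 probe of which 0.5 or more of the spots were well above background, and 61 had 4 such probes. The software set the total signal of miR-24-2-5p to 17.4, equal to the signal of that probe alone, and gave it rank 823, just before miR-27a-3p and miR-24-3p.

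miR-24-1-5p, which shares its first 15 bases with miR-24-2-5p, was not detected. Its 18 spots that were not marked as outliers ran from -6.65 to -1.10, and none was well above background. Since the mean over the 4 probes of miR-24-2-5p was itself below the lowest probe well above background, 13.7, no fold between the miR-24 passengers was computed from these means.

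The comparison of clusters therefore has a different form for each arm. For miR-23-3p the 23a/27a/24-2 cluster was brighter by 1.43 on the log2 scale (standard error 0.03 from the spots), a 2.69-fold difference in brightness. For miR-27-3p it was brighter by 1.05 (standard error 0.05), a 2.07-fold difference. For miR-27-5p no direction is given. The mean over probes gave -1.05, but 1 probe of miR-27a-5p was at the limit of 1, the spots of the arms overlapped, and with dim probes raised to the lowest brightness well above background the difference was -0.15. It was -0.47 with the brightest probe of each arm and -0.20 with the deposited values. Summed over the detected guides that can be assigned to a cluster, the total signal was 77.7 for miR-23a-3p and miR-27a-3p and 30.5 for miR-23b-3p and miR-27b-3p. Summed over the detected passengers it was 49.6 for miR-23a-5p, miR-27a-5p and miR-24-2-5p, and 6.27 for miR-27b-5p, the only detected passenger on the side of the 23b/27b/24-1 cluster. The passenger sums set 3 arms against 1, and 17.4 of the 49.6 came from the single bright probe of miR-24-2-5p. All these sums add brightness across different probes, so no fold between the clusters is drawn from them.

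The differences between the guide paralogues were not unusual for this array. Of 39 pairs of a and b paralogues named alike and sharing bases 2 to 8, 19 had both members detected, and their absolute log2 difference had a median of 1.24 and ran from 0.04 to 4.56. In 6 of these pairs it was larger than for miR-23-3p and in 10 it was larger than for miR-27-3p. Among the 7 pairs that differed at 1 base, the range was 0.52 to 2.93. The pairs miR-1268a with miR-1268b and miR-3155a with miR-3155b had no differing base over the length that could be compared, and they still differed by 0.82 and 0.81. Mature sequences were found by name for 2248 of the 2549 human miRNAs.

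**Figure D2:**
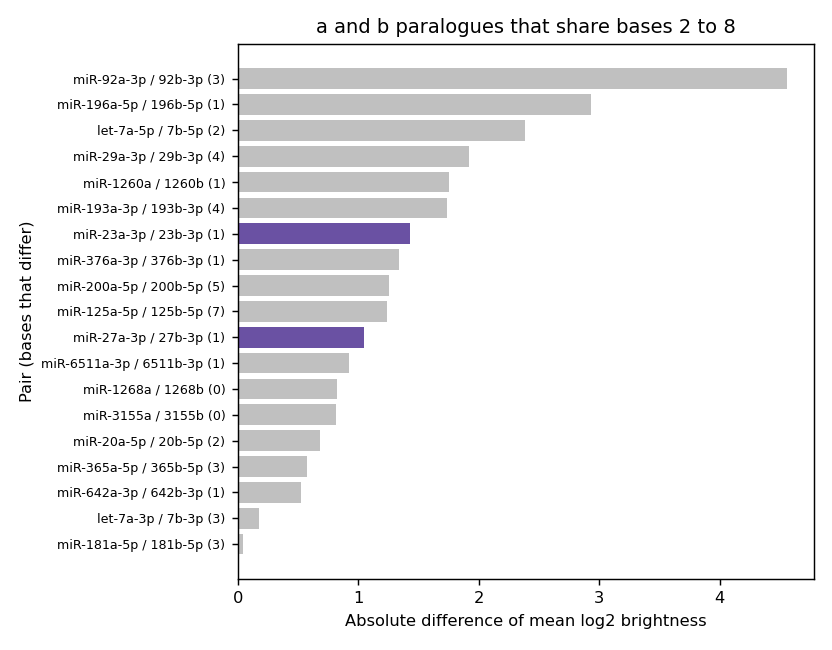
Absolute difference of the mean log2 brightness between a and b paralogues on the DLD-1 pLVX-NC array, for the 19 pairs that share bases 2 to 8 and were both detected, with the number of differing bases in parentheses. The miR-23-3p and miR-27-3p pairs, in purple, lie in the middle of the range at 1.43 and 1.05.

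miR-23c, whose probes could share signal with those of miR-23a-3p and miR-23b-3p, was detected with a mean of 20.4 ± 2.58 (SD over 19 spots), 14 of them well above background. Within the miR-23 seed family the order of brightness was thus miR-23a-3p, miR-23b-3p and miR-23c. Binding of a probe to the RNA of a paralogue was not tested.

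The arms of each hairpin were set side by side next. The 3p arm exceeded the 5p arm by 1.16 on the log2 scale for miR-23a (standard error 0.05 from the spots), and the lowest spot of the guide, 138, lay above the highest spot of the passenger, 112. For miR-27a the spots again did not overlap, but no probe of miR-27a-5p was well above background by the measure of 0.5 of its spots. With its dim probe raised to the lowest brightness among probes well above background, miR-27a-3p was 2.95-fold brighter, a log2 difference of 1.56. Without that limit the difference was 2.51, with the brightest probe 1.64 and with the authors' deposited values 1.34. For miR-27b the difference was 0.41 (standard error 0.10), and the spot ranges of 17.0 to 25.7 and 8.03 to 27.2 overlapped. With the brightest probe of each arm the miR-27b difference was -0.11.

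For the hairpins whose passenger was not detected, the guide was compared with the lowest brightness among probes well above background. miR-24-3p was at least 3.05-fold brighter than miR-24-1-5p on this basis, and miR-23b-3p was at least 4.47-fold brighter than miR-23b-5p.

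For miR-24-2 the direction depended on how the probes were combined. With the mean over probes, miR-24-3p exceeded miR-24-2-5p by 2.81 on the log2 scale (standard error 0.25). With the brightest probe of each, the difference was -2.12, with the passenger 4.36-fold brighter. With the total signal it was -0.17, and with the authors' deposited values -0.16. No direction between the arms of miR-24-2 can therefore be given from this array.

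**Figure D3:**
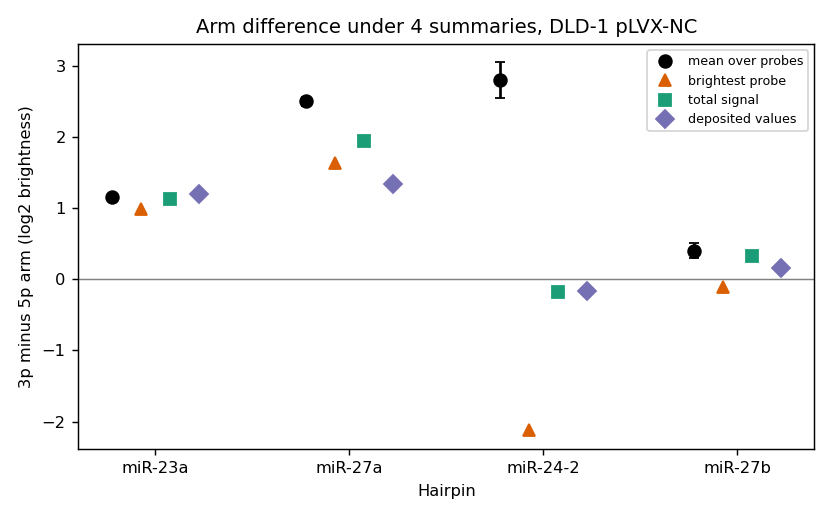
Difference between the 3p and the 5p arm (log2 brightness) of the 4 hairpins with both arms detected on the DLD-1 pLVX-NC array, from the mean over probes (bars are 1 standard error from the spots, hidden where smaller than the symbol), the brightest probe, the total signal and the deposited values. miR-23a and miR-27a stay above 0 with each summary, while miR-24-2 runs from 2.81 to -2.12 and miR-27b from 0.41 to -0.11.

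Across the array, both arms of 758 hairpins were measured, with genes that give the same mature arm counted separately, as for miR-24-3p. Both arms were detected for 235 of these hairpins, the 3p arm alone for 144 and the 5p arm alone for 219. The MIR23A, MIR27A, MIR27B and MIR24-2 hairpins belong to the first of these sets, and MIR23B and MIR24-1 to the second. For MIR24-1 and MIR24-2 this placing rests on the shared miR-24-3p signal, which cannot be assigned to either hairpin. Among the 235, the 3p arm was brighter in 35.7%, and the median absolute difference between arms was 2.37. The absolute difference of MIR27B was larger than in 7.66% of these hairpins and that of MIR23A larger than in 26.4%, whereas MIR27A and MIR24-2 exceeded 53.6% and 57.9%, both with passenger probes near background. With the brightest probe of each arm these shares were 2.55% for MIR27B, 24.3% for MIR23A, 40.0% for MIR27A and 51.5% for MIR24-2, the last with the passenger brighter. A change of sign between the mean over probes and the brightest probe occurred in 16 of the 235 hairpins (6.81%), and MIR24-2 and MIR27B were among them.

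**Figure D4:**
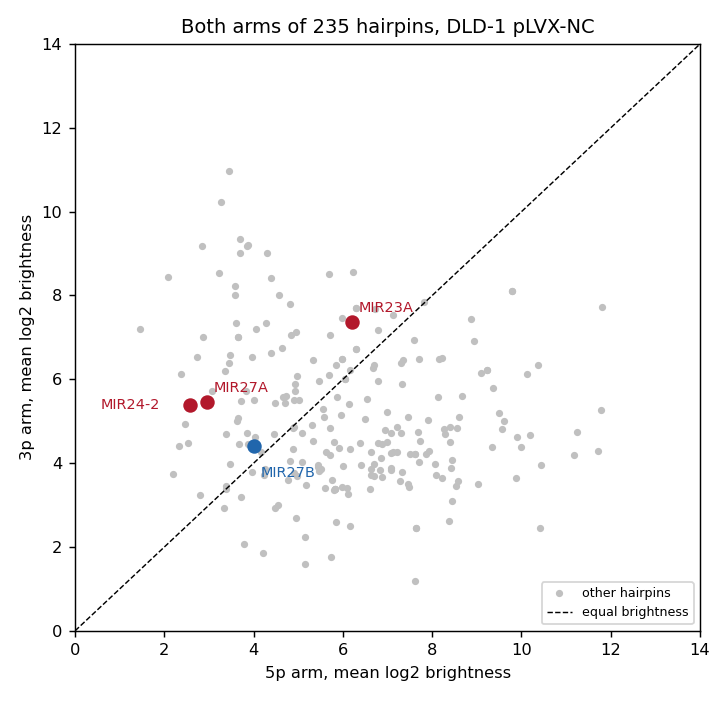
Mean log2 brightness of the 5p arm (x axis) and the 3p arm (y axis) for the 235 hairpins with both arms detected on the DLD-1 pLVX-NC array; grey points are other hairpins, red points belong to the 23a/27a/24-2 cluster and the blue point to the 23b/27b/24-1 cluster, and the dashed line marks equal brightness. With this mean over probes the 4 hairpins lie above the line, as 35.7% of all do, but with the brightest probe MIR24-2 (-2.12) and MIR27B (-0.11) lie below it.

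The log2 difference between the 2 probes was 0.05 for miR-27b-3p, 0.10 for miR-24-3p, 0.10 for miR-23b-3p, 0.32 for miR-23a-3p and 0.51 for miR-27a-3p. The median over the 1217 detected miRNAs with 2 probes was 0.31. Thus miR-27b-3p, miR-24-3p and miR-23b-3p lay below that median, miR-23a-3p at about it and miR-27a-3p above it. The spots of the 2 probes of miR-27a-3p did not overlap, nor did those of miR-23a-3p. The detected passengers, with 4 probes each, had 0.77 for miR-23a-5p, 0.93 for miR-27b-5p, 4.08 for miR-27a-5p and 7.30 for miR-24-2-5p, and in miR-27a-5p and miR-24-2-5p the size depends on the limit of 1 set for dim spots.

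The members lay in the middle and lower part of the range of levels. By total signal, miR-23a-3p lay above 71.3% of the detected miRNAs, miR-23a-5p above 54.6% and miR-23b-3p above 49.6%. miR-24-2-5p, miR-27a-3p and miR-24-3p were close together, above 43.2%, 41.9% and 40.3%. miR-27b-3p, miR-27b-5p and miR-27a-5p lay above 22.9%, 17.3% and 10.98%. The median total signal of detected miRNAs was 23.1 and the highest was 19786.

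**Figure D5:**
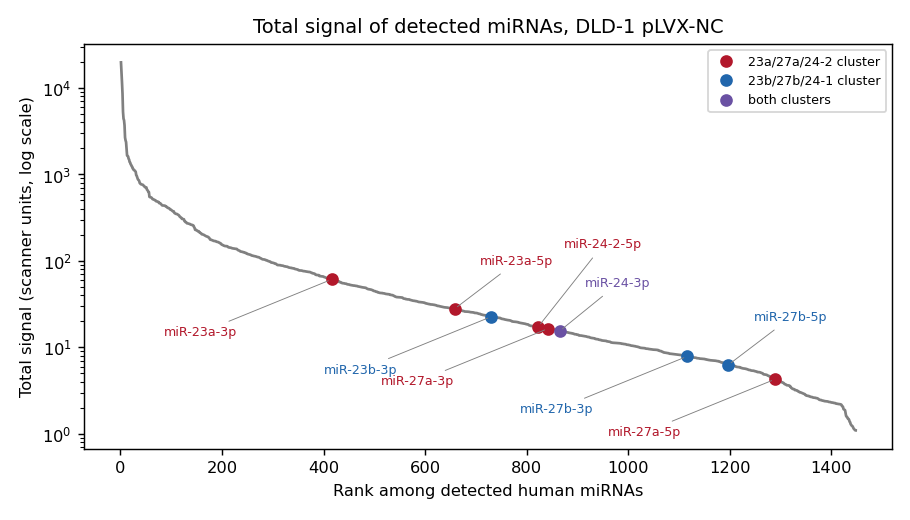
Total signal (log scale) of the 1448 detected human miRNAs on the DLD-1 pLVX-NC array by rank, with the 9 detected members as coloured points. The members run from rank 416 for miR-23a-3p to rank 1289 for miR-27a-5p.

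Base composition moved with brightness to a small degree. Over 1279 detected miRNAs with a sequence, the share of G and C in the mature miRNA and the log2 total signal had a Spearman correlation of 0.19 and a Pearson correlation of 0.20, as a description across miRNAs that share 1 array. Among detected miRNAs within 5 percentage points of its own G and C share of 47.6%, miR-23a-3p lay above 77.9% of 349, and miR-27b-3p, with the same share, lay above 27.5% of them. miR-24-3p, with 54.5%, lay above 40.4% of 438. Their positions within such windows thus stayed near those over all detected miRNAs.

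A further miRNA gene, MIR3074, lies on the strand opposite to MIR24-1 and was looked at because of that position, after the values were seen. Its arms are shown because they are antisense to both arms of miR-24-1. miR-3074-5p overlaps miR-24-3p by 20 bases, and miR-3074-3p overlaps miR-24-1-5p by 19 bases.
miR-3074-5p: gUUCCUGCugaacugagccag
miR-3074-3p: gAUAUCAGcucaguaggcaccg

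Both arms of miR-3074 were detected. miR-3074-5p had a mean of 52.2 ± 14.5 (SD over 18 spots) and miR-3074-3p of 69.3 ± 10.3 (SD over 20 spots), with every spot well above background. Their total signals of 19.7 and 25.5 were higher than the 15.5 of miR-24-3p. By probe, miR-3074-3p had means of 60.2 and 78.5, above those of miR-24-3p at 40.6 and 43.4. The probes of miR-3074-5p had means of 40.8 and 66.5, so the dimmer one lay within the range of miR-24-3p. So on this array the arms annotated opposite to miR-24-1 gave signal where miR-24-1-5p itself gave none. Whether RNA of the MIR24-1 strand reaches these probes was not tested.

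The authors' deposited log2 values kept the order of total signal for the 9 detected members. They were 5.56 for miR-23a-3p, 4.37 for miR-23a-5p, 4.08 for miR-23b-3p, 3.73 for miR-24-2-5p, 3.67 for miR-27a-3p, 3.58 for miR-24-3p, 2.69 for miR-27b-3p and 2.53 for miR-27b-5p. miR-27a-5p held 2.33, the lowest value of any detected miRNA, and miR-24-1-5p held 2.32, the value given to miRNAs that were not detected. The deposited values therefore place the passenger miR-24-2-5p above the miR-27a and miR-24 guides.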

How the data were processed

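Total RNA of DLD-1 cells transfected with pLVX-NC was hybridized by the authors to 1 Arraystar Human miRNA Microarray. The authors deposited the scanner's table of spot intensity values from Agilent Feature Extraction 11.0.1.1, with the local background subtracted and with outlier and detection flags set. The authors also deposited log2 values of this array, quantile normalized in GeneSpring GX per the methods. The arrays normalized together are not given in the sources used here. The labels name direct Cy3 ligation to miRNA and the methods name labelled cDNA.

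The sample was assigned from its labels. Control and outlier spots were left out and brightness below 1 was set to 1. Each probe was given the mean log2 value of its spots and each miRNA the mean of its probes, and the 75th percentile of detected probes was subtracted for levels. Detected probes had at least 0.5 of their spots well above background in a detected miRNA. Standard errors come from the spots. Detection was the software's flag. Sequences and positions are from RefSeq (GRCh38.p14).

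The named miRNAs were the members, miR-23b-5p and array miRNAs sharing a guide seed, with miR-3074 added later. Members, lists and comparisons were chosen with earlier results of these data known. Alternatives covered detection, background correction, outlier spots, probe summary, scaling and the deposited values. Computation used Python 3.11.15, numpy 2.4.6, pandas 2.3.3, matplotlib 3.10.9, and limma 3.58.1 in R 4.3.3 for normexp with an offset of 50. The probe summary was tested on simulated data, in which all probes were set above the limit of 1. That test therefore does not bear on members with probes at this limit. With 1 array, the number of arrays limits the precision and no p-value is given.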

Additional observations from a re-analysis of the deposited data

How the results depend on the processing

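With 1 array, spot spread is the only error, and probe sequences were not used here. No paired analysis was possible because a single array was examined. The count of 9 detected members was 8 when 0.5 or more of a probe's spots had to be well above background (49.9% of human miRNAs), 7 with every spot (45.8%) and 9 with at least 0.5 positive and significant (68.9%). A value is called moved here when it changed by more than the SD between spots. After normexp correction, whose offset of 50 narrows differences, the 3p minus 5p difference was 0.75 for miR-23a, 0.56 for miR-27a and 0.21 for miR-24-2, with bounds of 0.41 for miR-24-1 and 0.67 for miR-23b. The cluster difference was then 0.90 for miR-23-3p, 0.36 for miR-27-3p and -0.13 for miR-27-5p, and the median spread from brightest to dimmest probe of the detected members went from 0.51 to 0.21 (log2). With the brightest probe, miR-27a gave 1.64, miR-24-2 -2.12, miR-27b -0.11 and miR-27-5p -0.47. With the total signal, miR-27a gave 1.95, miR-24-2 -0.17, miR-27-5p -0.55, and the bounds were 3.82 for miR-24-1 and 4.37 for miR-23b. With the deposited values, miR-27a gave 1.34, miR-24-2 -0.16, miR-27-5p -0.20, and the bounds were 1.25 and 1.75. Over probes with at least 0.5 of their spots well above background, a setting chosen after seeing the data, miR-24-2 gave -2.17 and miR-27b -0.13, and miR-27a gave no value because miR-27a-5p had 0 such probes. With dim probes raised to the lowest brightness well above background, also chosen after seeing the data, miR-27a gave 1.56, miR-24-2 0.66 and miR-27-5p -0.15. For miR-24-2, 3 of 4 passenger probes are near background, and the summaries differ in how far they count them. Why the probes differ was not tested, and neither was the cause of the other changes. Keeping outlier spots moved none of these differences. Directions were the same under every alternative that gave a value for miR-23a, miR-27a and the cluster differences of miR-23-3p and miR-27-3p. The cluster difference of miR-27-5p kept its sign but came down to -0.13 and -0.15, and no direction is given for it. The bounds could not change sign, because each guide lay above the limit it was compared with, so nothing is drawn from their sign. Of 54 alternative values for the levels of the 9 detected members, 41 moved, and of 27 for their position among detected miRNAs, 4 moved by over 10 percentage points. miR-24-2-5p lay above 3.18% of the detected miRNAs with the mean over probes.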
